A study of Homo sapiens with 6 samples.

Results

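The collagen genes are the 43 rows of the deposited gene table whose symbol has the form COL, a type number, A and a chain number, out of 23368 genes in all. Membership rests on the name and not on any measured value, but the group was chosen with earlier results of these data known. They were measured by RNA sequencing in 1205Lu, an established human melanoma line derived from a metastasis. Every flask was transiently transfected with 7.8 µg of plasmid, either pCMV6-SOX10, which expresses the transcription factor SOX10 from the CMV promoter, or the pCMV6 vector as control. Cells of both groups were lysed 24 h later, and each group has 3 libraries described as biological replicates. The transfection was transient, and the share of cells that took up plasmid is not stated in the labels.

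Collagens are secreted proteins in which chains with a repeated glycine motif wind into helical trimers. Fibrillar types build the fibrils of connective tissue, type IV builds the network of basement membranes, type VI forms beaded filaments next to cells, and fibril-associated types decorate fibrils or link them to other matrix. Some types are trimers of 1 chain, and others need different chains from separate genes. Melanoma cells sit on and cross a type IV basement membrane and meet fibrillar collagen in the dermis.

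The libraries were shallow and unequal in depth. Reads assigned to genes numbered 2544420 to 4167393 in the SOX10 libraries and 867917 to 2066520 in the controls, so 1 read was worth 0.24 to 1.15 CPM (read counts scaled to the assigned total). Levels below are also scaled by TMM factors, which balance the makeup of the libraries. SOX10 itself had 81, 47 and 143 reads in the libraries labelled SOX10 against 15, 18 and 44 in the controls. In CPM this was 18.7 to 34.6 against 16.6 to 21.5, with a log2 fold change of 0.35 (SE 0.27, adjusted p 0.927 by edgeR). A rise of SOX10 RNA was thus not detected, and the gene does not check the labels. SOX10 is among the 9 melanoma markers looked at. Of the others, S100B and ERBB3 were abundant, while MLANA, TYR and DCT had only 4, 9 and 6 reads over all 6 libraries. PMEL and MIA had 19 and 8 reads. MITF had 75 reads, with a log2 fold change of -0.44 (SE 0.46, adjusted p 0.932 by edgeR). Among 10 fibroblast markers, LUM was at 0 reads, and THY1, POSTN and DCN had 1, 10 and 11 reads in all. The other 6 had enough reads for a test, with 1817 reads of PDGFRA, 432 of PRRX1, 279 of TWIST2, 155 of FAP, 150 of PDGFRB and 135 of FBLN1. The summed level of the fibroblast list was 174 to 239 CPM in the SOX10 libraries and 187 to 219 CPM in the controls, mostly from PDGFRA. The summed level of 6 endothelial markers was 8.72 to 22.3 against 7.74 to 18.5 CPM, and that of 4 keratinocyte markers 0.803 to 6.06 against 0 to 9.23 CPM. In bulk RNA, fewer cells of a type and less RNA per cell cannot be told apart.

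Promoter windows show how the most abundant chains are arranged. RefSeq windows on GRCh38.p14, from 250 bases before to 50 bases after the start, matched 31 of the 43 chains. The genes COL4A1 and COL4A2 start 127 bases apart on opposite strands, and their windows share 226 bases. COL4A3 and COL4A4 have the same head-to-head arrangement with starts 419 bases apart, and COL4A6 and COL4A5 with starts 380 bases apart. The stretches below are shown because the first is the whole interval between the starts of COL4A1 and COL4A2, the second belongs to a pair with few reads, and the last ones carry a SOX core motif before the start. The COL4A1-COL4A2 interval is chr13:110307158-110307283 on the strand of COL4A2. The others are the 250 bases before the start on the gene's own strand, at chr2:227164374-227164623 for COL4A3 (plus strand), chr1:40317287-40317536 for COL9A2 (minus strand) and chr19:10010505-10010754 for COL5A3 (minus strand). Capitals mark the GC box GGGCGG and the SOX cores ACAAAG and ACAATG, searched on both strands, and where GC boxes touch or overlap they run together.
COL4A1-COL4A2: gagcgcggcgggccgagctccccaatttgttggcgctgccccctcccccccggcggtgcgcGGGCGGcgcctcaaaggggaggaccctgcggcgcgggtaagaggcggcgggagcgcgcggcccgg
COL4A3: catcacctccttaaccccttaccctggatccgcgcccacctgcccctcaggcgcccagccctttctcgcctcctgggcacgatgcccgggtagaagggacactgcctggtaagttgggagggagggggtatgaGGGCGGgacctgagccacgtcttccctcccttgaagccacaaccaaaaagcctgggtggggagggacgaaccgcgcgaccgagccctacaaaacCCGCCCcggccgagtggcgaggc
COL9A2: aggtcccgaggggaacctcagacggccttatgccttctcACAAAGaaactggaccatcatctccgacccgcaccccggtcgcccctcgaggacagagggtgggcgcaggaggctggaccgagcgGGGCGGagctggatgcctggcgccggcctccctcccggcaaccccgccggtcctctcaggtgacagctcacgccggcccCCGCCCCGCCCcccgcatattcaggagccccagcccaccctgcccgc
COL5A3: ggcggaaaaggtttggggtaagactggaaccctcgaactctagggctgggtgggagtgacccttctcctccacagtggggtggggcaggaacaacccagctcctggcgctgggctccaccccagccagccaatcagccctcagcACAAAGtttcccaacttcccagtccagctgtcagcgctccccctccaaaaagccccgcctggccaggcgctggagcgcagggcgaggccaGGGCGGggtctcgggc

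A GC box was present in 18 of the 31 collagen windows, against 45% of 35116 RefSeq windows of the same length. Only the first listed window of each chain was searched, while the 35116 include every listed window of a gene. ACAAAG or ACAATG was present in 4 of the 31, against 24.5% of all windows. These were COL5A3, COL9A2, COL17A1 and COL15A1, where the match lies 33 bases after the start. The windows of COL4A1 and COL4A2 hold neither SOX core, which says only that these letters are not in these windows.

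The 1205Lu cells expressed mainly type IV, type VI and fibril-associated collagens, and hardly any of the classical fibrillar chains. A total of 23969 reads fell on the 43 genes, and each gene had at least 1 read. Collagen reads made up 0.157% to 0.177% of assigned reads per library. Basement membrane chains took 46.4% of the collagen reads, fibril-associated chains 28.7%, beaded filament chains 15.3%, all 11 fibrillar chains together 6.04%, multiplexins 2.53% and transmembrane collagens 0.605%. COL4A2, COL12A1, COL6A2 and COL4A1 alone held 70.7% of the reads. A mean of at least 1 CPM over the 6 libraries was reached by 37 chains, and a mean of at least 5 CPM by 17.

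Levels of different genes were compared per length, as RPKM, which is CPM divided by the length in kilobases of the transcript with the longest coding part. COL4A2, a chain of the basement membrane network, was the highest at 97.4 ± 5.68 RPKM (SD over 6 libraries), with 101, 106 and 94.4 RPKM in the SOX10 libraries and 95, 89.5 and 99.0 RPKM in the controls. On this length it exceeded every other chain in each library. COL6A2 at 42.3 ± 8.29 and COL9A3 at 40.6 ± 1.65 RPKM came next and did not differ beyond their spread. COL6A1 at 24.9 ± 4.50, COL12A1 at 23.7 ± 3.41 and COL4A1 at 19.9 ± 2.61 RPKM also overlapped each other. COL22A1, which lies at tissue junctions, stood at 12.6 ± 0.72 RPKM, between COL4A1 and COL27A1, with no library in the range of either on this length. COL27A1, COL15A1, COL5A3, COL5A1 and COL18A1 formed an overlapping group from 3.12 to 4.51 RPKM. In all, 16 chains had at least 1 RPKM. Levels and order depended on the length used. With the merged exons of all transcripts, COL4A2 stood at 32.8 RPKM and COL6A2 at 27.2 RPKM, and in SOX10 replicate 1 COL6A2 was the higher of the pair. On that length COL22A1 at 10.2 RPKM lay above COL4A1 at 8.92 RPKM, the reverse of the order above. With coding length alone COL4A2 stood at 123 RPKM, COL9A3 at 49.4 and COL6A2 at 47.9 RPKM.

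**Figure D1:**
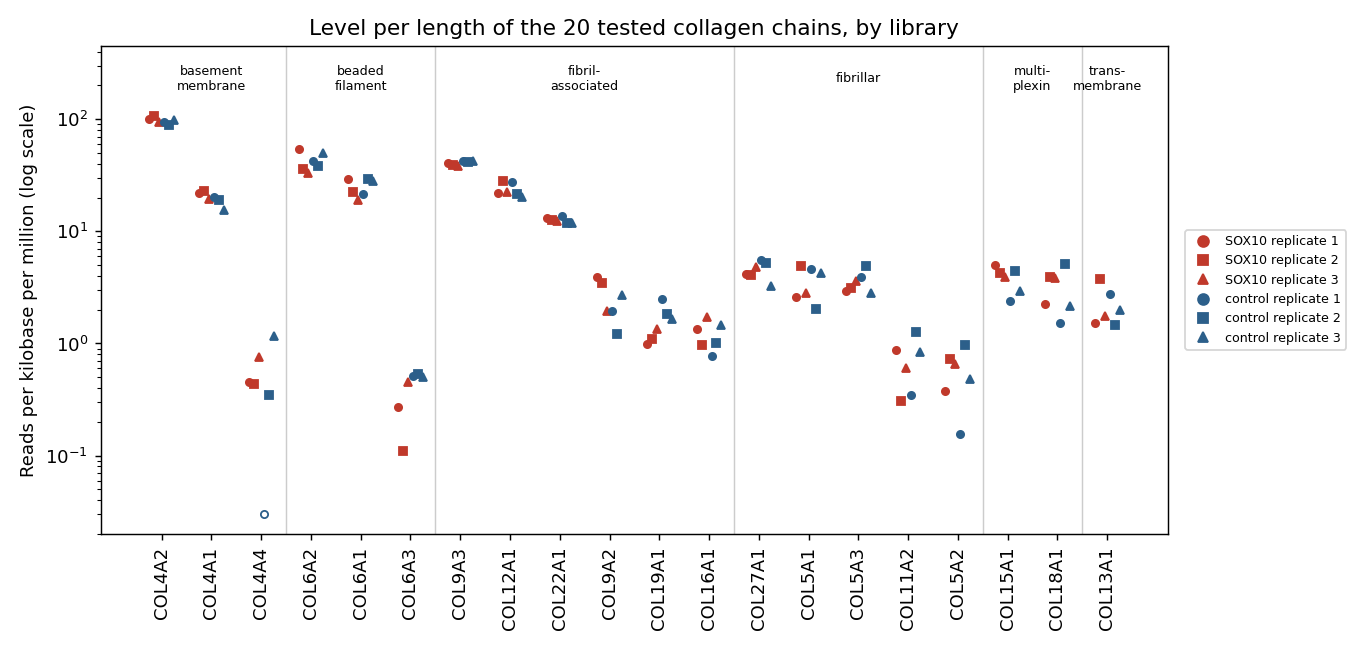
Level per length (RPKM, log axis) of the 20 collagen chains with enough reads for a test, grouped by type. Each point is 1 library, and the open circle at the foot marks a library with 0 reads of COL4A4. COL4A2 lies near 97.4 RPKM, and the red (SOX10) and blue (control) points overlap for most chains.

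Chains that assemble together were present at unequal levels. In type IV collagen, COL4A2 exceeded its partner COL4A1 per length by 4.97 ± 0.71 times (SD over 6 libraries). As background, the type IV trimer made of both holds more of the COL4A1 chain. The ratio was 4.55, 4.63 and 4.83 in the SOX10 libraries against 4.74, 4.67 and 6.39 in the controls. Control replicate 3 stands apart from the other libraries in this ratio, and COL4A1 was lowest there at 15.5 RPKM. With coding length in place of transcript length the mean ratio was 4.75, and with the merged exons of all transcripts 3.73. The remaining type IV chains, COL4A3 to COL4A6, which build the networks of the kidney and other specialised basement membranes, had 41, 86, 8 and 5 reads over all libraries.

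Type VI filaments need a larger chain besides COL6A1 and COL6A2, encoded by COL6A3 or a relative. COL6A2 stood at 1.71 ± 0.22 times COL6A1 per length, with every library between 1.32 and 1.95. COL6A1 in turn exceeded COL6A3 by 42.0 to 199.5 times, the highest ratio resting on 3 reads of COL6A3 in SOX10 replicate 2. COL6A3 had 11, 3 and 20 reads in the SOX10 libraries against 5, 5 and 11 in the controls. The alternative chains COL6A5 and COL6A6 had 31 and 32 reads in total. All candidate partner chains were thus far below COL6A1 and COL6A2 in each library.

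Type IX collagen of cartilage is a trimer of COL9A1, COL9A2 and COL9A3 products, and only COL9A3 was abundant. It exceeded COL9A2 by 10.3 to 34.4 times and COL9A1 by 34.3 to 94.1 times per length. COL9A1 had 8, 5 and 8 reads in the SOX10 libraries against 2, 5 and 5 in the controls, so single reads move the last ratio. In type V collagen, which regulates fibril diameter, COL5A3 stood at 1.15 ± 0.65 times COL5A1, and COL5A2 had 56 reads in all.

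**Figure D2:**
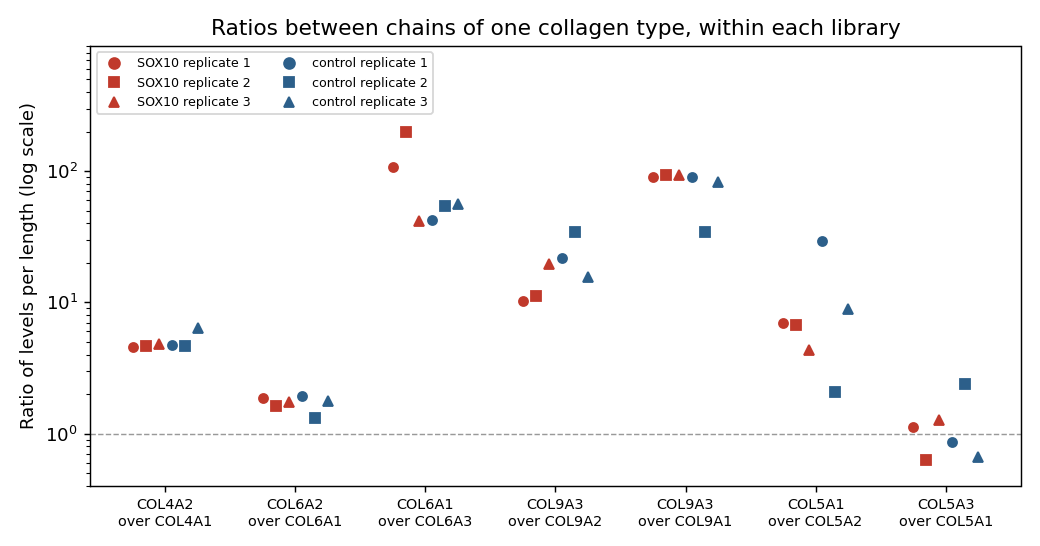
Ratio of levels per length (log axis) between chains of 1 collagen type, 1 point per library, with the dashed line at equal levels. COL4A2 over COL4A1 lies between 4.55 and 6.39, COL6A2 over COL6A1 between 1.32 and 1.95, and the ratios with a rare chain in the denominator spread widely.

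The main fibrillar collagens were close to absent. COL1A1, the main chain of type I collagen of skin and bone, had 5, 9 and 12 reads in the SOX10 libraries against 5, 4 and 7 in the controls, or 2.61 ± 1.15 against 4.52 ± 1.06 CPM (SD, n = 3 each). Its partner COL1A2 had 10, 2 and 1 against 6, 5 and 0 reads. COL2A1, the cartilage fibril chain, had 8 reads in all, and COL10A1 of hypertrophic cartilage had 2. These chains had too few reads for the test between groups given below. Where none is counted, up to 3 reads may be hidden, which is 0.72 to 3.46 CPM by library and covers counting error only.

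SOX10 transfection was then compared with the control vector, the question the series design poses for all genes. Of the 43 chains 20 had enough reads, and 0 rose and 0 fell in the quasi-likelihood test of edgeR (adjusted p under 0.05 over all 10678 genes tested). Over all genes 0.112% passed, 0.00937% higher and 0.103% lower. None of the 20 chains had an unadjusted p under 0.05 either, against 6.23% of all genes, and DESeq2 and limma-voom also called 0. Of the 20, 10 had a positive and 10 a negative log2 fold change, with a median of 0.0092 against 0.0076 over all genes tested. The adjusted p-values of the 20 chains by edgeR lay between 0.817 and 0.998. The summed level of all 43 chains was 1709.9 ± 108 CPM in the SOX10 group and 1677 ± 40.8 CPM in the controls (SD, n = 3 each), and the libraries overlapped.

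**Figure D3:**
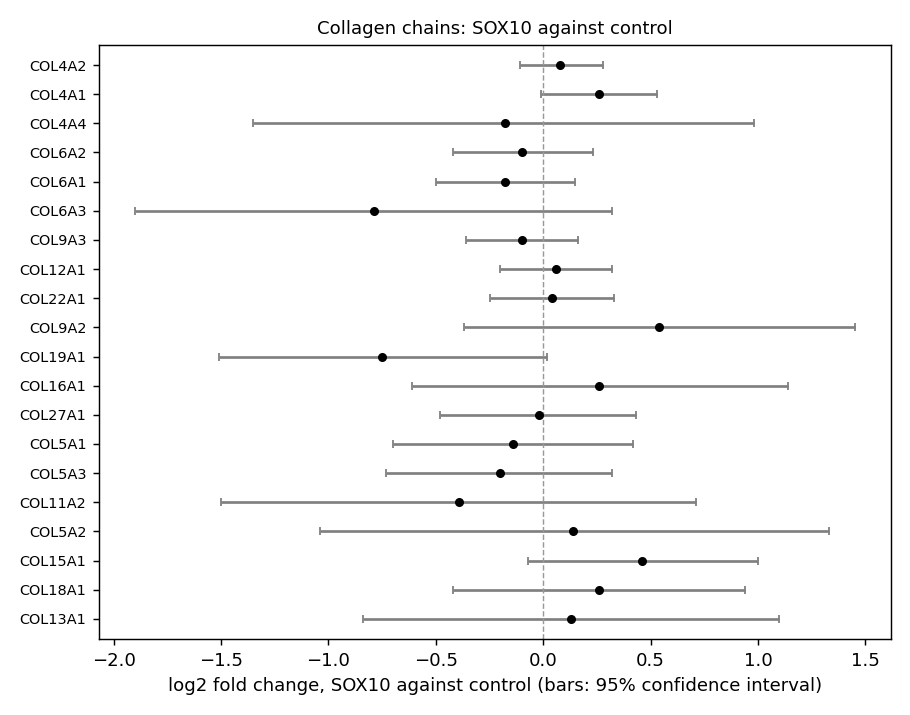
Log2 fold change of the 20 tested collagen chains, SOX10 against control, from edgeR, with bars for the 95% confidence interval. Every interval includes 0, and the bars are narrow for abundant chains such as COL4A2 (from -0.11 to 0.28) and wide for rare ones such as COL6A3 (from -1.90 to 0.32).

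Among basement membrane chains, COL4A2 had 654, 687 and 613 CPM in the SOX10 libraries and 617, 581 and 643 CPM in the controls. The groups overlapped, and the log2 fold change was 0.08 (SE 0.09, adjusted p 0.933 by edgeR). The 95% confidence interval of the fold ran from 0.926 to 1.21, which makes this the most precisely measured chain. COL4A1 had 146, 151 and 129 against 133, 127 and 102 CPM, with control replicate 1 above SOX10 replicate 3. Its log2 fold change was 0.26 (SE 0.13, adjusted p 0.830 by edgeR), and 0.13 without control replicate 3. COL4A4 was at 0, 3.46 and 11.7 CPM in the controls and 4.39 to 7.51 CPM in the SOX10 libraries. The log2 fold change of -0.18 (SE 0.56) became 1.69 without control replicate 3, so that library decided the direction, and it was -0.62 without control replicate 1.

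The filament chains COL6A1 and COL6A2 had the same order of libraries within the SOX10 group. COL6A2 had 188, 125 and 114 CPM in the SOX10 libraries and 146, 133 and 173 CPM in the controls. COL6A1 had 124, 94.1 and 80.2 against 91.8, 123 and 119 CPM. In both genes SOX10 replicate 1 held the highest value of all 6 libraries and SOX10 replicate 3 the lowest, and the groups overlapped. The log2 fold changes were -0.10 (SE 0.16) and -0.18 (SE 0.16), with adjusted p-values of 0.958 and 0.932 by edgeR. Without SOX10 replicate 1 they were -0.36 and -0.38, and without SOX10 replicate 3 they were 0.05 and -0.03. SOX10 replicate 1 also had only 93.5 reads of the class no_feature (assigned to no counted feature) for every 100 assigned, against 121 and 122 in the other SOX10 libraries. Control replicate 3, with the highest control value of COL6A2, had 97. Control replicate 2, with the highest control value of COL6A1, had 135, the most of all 6 libraries. With no_feature reads as a covariate the log2 fold changes were -0.18 for COL6A2 and -0.23 for COL6A1. Their unadjusted p-values were 0.117 and 0.103 by edgeR. COL6A3 was at 2.95, 1.20 and 4.84 CPM in the SOX10 libraries and at 5.53, 5.77 and 5.36 in the controls, each SOX10 library lying lower. Its log2 fold change was -0.79 (SE 0.54, adjusted p 0.915 by edgeR), and -1.31 without SOX10 replicate 3 and -0.49 without SOX10 replicate 2.

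Fibril-associated chains included the steadiest and some of the most variable members. COL12A1, which tunes fibril organisation in tissue under load, had 256, 332 and 261 CPM in the SOX10 libraries and 325, 254 and 239 CPM in the controls, with a log2 fold change of 0.06 (SE 0.13) that leaving out single libraries moved from -0.07 to 0.20. COL22A1 had 83.8, 79.8 and 78.2 against 86.2, 75.0 and 75.1 CPM and a log2 fold change of 0.04 (SE 0.14). COL9A3 had 101, 97.7 and 95.7 against 105, 104 and 106 CPM. Every SOX10 library was lower than every control for COL9A3, but by little, with a log2 fold change of -0.10 (SE 0.13). The adjusted p-values of these genes by edgeR were 0.966, 0.985 and 0.941. Of the chondrocyte markers, SOX9, a regulator of cartilage collagen genes, stood at 369 ± 40.0 CPM in the SOX10 group and 435 ± 47.3 CPM in the controls (SD, n = 3 each), and its log2 fold change of -0.24 (SE 0.11) had an adjusted p of 0.766 by edgeR. The 4 chondrocyte markers summed to 389 to 457 CPM in the SOX10 libraries and 446 to 509.5 CPM in the controls. ACAN had 38.9 ± 3.89 CPM in the SOX10 group and 48.4 ± 11.8 CPM in the controls, with overlapping groups. For ACAN the log2 fold change was -0.30 (SE 0.19, adjusted p 0.902 by edgeR). MATN3, with 47 reads and not tested, went the other way, at 3.5 ± 1.85 against 2.14 ± 1.09 CPM. COMP had 7 reads in all. The part of these markers in the COL9A3 value was not tested.

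COL19A1 had the smallest p-value of the collagen chains. This chain, found at low levels in basement membrane zones, was at 6.16, 6.78 and 8.48 CPM in the SOX10 libraries and at 15.5, 11.5 and 10.2 CPM in the controls, on 75 and 45 reads. The groups did not overlap, and the log2 fold change was -0.75 (SE 0.37, unadjusted p 0.0544, adjusted p 0.817 by edgeR). Without single libraries the log2 fold change ran from -0.91 to -0.58, and it was -0.45 (unadjusted p 0.269 by edgeR) with all libraries thinned to equal depth. COL9A2 stood at 5.57 to 11.2 against 3.46 to 7.80 CPM, its log2 fold change being 0.54 (SE 0.44), which leaving out SOX10 replicate 1 moved to 0.31 and control replicate 3 to 0.96. COL16A1, at 5.58 to 9.93 against 4.42 to 8.29 CPM, had 0.26 (SE 0.42), or 0.63 without control replicate 3 and 0.04 without SOX10 replicate 3. In 3 of the 20 tested chains, COL9A3, COL19A1 and COL6A3, the groups did not overlap, all with lower SOX10 libraries. Over all tested genes 11.8% did not overlap, 5.72% with higher and 6.03% with lower SOX10 libraries.

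Among fibrillar chains, COL27A1 had 32.4, 31.9 and 37.5 CPM in the SOX10 libraries and 43.1, 40.4 and 25.4 CPM in the controls. Its log2 fold change was -0.02 (SE 0.22, adjusted p 0.998 by edgeR), and leaving out single libraries moved it from -0.29 to 0.13. COL5A1 had 22.2, 41.5 and 24 against 38.7, 17.3 and 36.1 CPM, and COL5A3 had 18.2, 19.1 and 22.0 against 24.3, 30.0 and 17.6 CPM, both with overlapping groups. The minor chains COL5A2 and COL11A2 reached at most 6.92 and 8.07 CPM, both in control replicate 2. COL5A1, COL5A3, COL5A2 and COL11A2 had log2 fold changes of -0.14, -0.20, 0.14 and -0.39, with standard errors from 0.25 to 0.57. Leaving out 1 library moved COL5A1 from -0.45 to 0.03, COL5A3 from -0.45 to -0.02, COL5A2 from -0.19 to 0.64 and COL11A2 from -0.75 to -0.09. Both multiplexins, whose C-terminal fragments include endostatin in the case of COL18A1, had positive values. COL15A1 had 27.6, 23.1 and 21.6 against 13.3, 24.2 and 16.1 CPM, with control replicate 2 inside the SOX10 range. Its log2 fold change was 0.46 (SE 0.26, adjusted p 0.871 by edgeR), and leaving out 1 library moved it from 0.34 to 0.68. COL18A1 had 14.7, 25.5 and 25.4 against 9.95, 33.4 and 14.1 CPM, with control replicates 1 and 2 at the ends of the range. Between the groups the log2 fold change was 0.26 (SE 0.33), or 0.02 without control replicate 3 and 0.79 without control replicate 2. In GENCODE release 29, 16.4% of the exonic bases of COL18A1 lie opposite SLC19A1, and no source used here states whether counting used the strand, so this value is uncertain. The transmembrane chain COL13A1 was highest in SOX10 replicate 2 at 12.0 CPM and between 4.61 and 8.84 CPM elsewhere. The log2 fold change of 0.13 (SE 0.47) turned to -0.33 when SOX10 replicate 2 was left out.

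The 23 remaining chains had too few reads for the test, and a few of them were detected unevenly. COL11A1 and COL3A1, named after their values were seen, had reads in every SOX10 library and almost none in the controls. COL11A1, a minor fibril chain of cartilage, had 7, 8 and 10 reads in the SOX10 libraries and 0 in all controls. The pooled level was 2.39 CPM against a control floor of 0.777 CPM (3 reads over the group), or 3.08 times the floor. Counting error in the SOX10 reads and the spread between libraries are not part of that value. At the SOX10 level the controls would have held 9.24 reads. COL3A1, the fibrillar chain of soft tissue and vessels, had 6, 6 and 12 against 0, 1 and 0 reads. The ratio of its pooled levels was 8.87, with an exact 95% interval from 1.45 to 365 that covers counting error only. With no filter on low counts, COL11A1 had an unadjusted p of 0.00244 and an adjusted p of 0.376 by edgeR, and COL3A1 0.0307 and 0.921.

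In the opposite direction, COL14A1, COL28A1, COL9A1 and COL25A1 were lower in every SOX10 library than in every control. They had 21, 21, 21 and 12 reads over the SOX10 group and 18, 16, 12 and 11 over the controls, whose total depth was 3860015 against 10444612 assigned reads. None passed in the unfiltered edgeR fit, with adjusted p-values of 0.921 for each. In all, 6 of the 23 chains did not overlap between groups, 2 higher and 4 lower. The share was 7.37% of the 9860 genes with reads but too few for the test (4.87% higher and 2.51% lower). These genes were not matched to the chains for read count. At the depth of the controls a single read was worth 0.484 to 1.15 CPM, so such separations rest on a few reads. Skin adhesion collagens were also rare, with 32 reads of COL7A1, which anchors the epidermal basement membrane, and 17 of COL17A1 of the hemidesmosome. COL8A1, a short chain of vessel and corneal matrix, had 6, 4 and 12 against 0, 0 and 4 reads. COL4A3 had 0.536, 7.18 and 3.39 CPM in the SOX10 libraries and 1.11, 2.31 and 1.95 CPM in the controls, so SOX10 replicate 1 lay below every control and the other SOX10 libraries above. The remaining chains COL20A1, COL21A1, COL23A1, COL24A1 and COL8A2 had 17, 19, 9, 22 and 7 reads over all libraries.

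**Figure D4:**
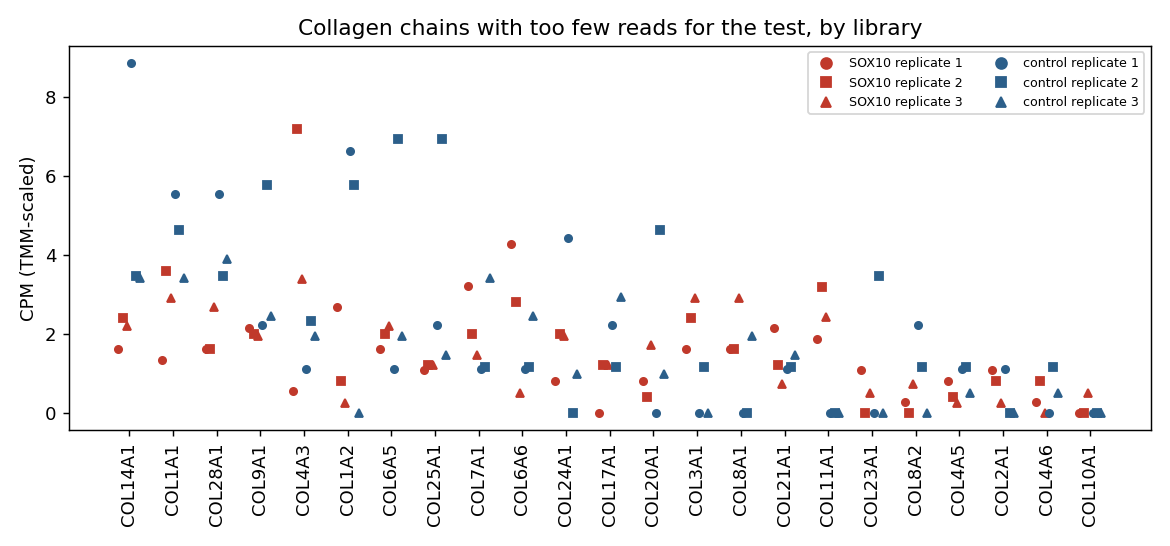
TMM-scaled CPM of the 23 collagen chains with too few reads for the test, 1 point per library. COL11A1 and COL3A1 have red (SOX10) points from 1.61 to 3.19 CPM with most blue (control) points at 0, and the highest point of any other chain is 8.84 CPM.

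The genes that make and modify collagen showed no call. Of 56 genes for collagen hydroxylation, folding, secretion, processing, cross-linking and binding, 40 were tested, 14 had too few reads and 2 had none, and 0 rose and 0 fell by edgeR over all genes. At an unadjusted p under 0.05 there were 0, and DESeq2 and limma-voom called 0. The median log2 fold change was 0.117 against 0.0076 over all genes tested, with 31 positive and 9 negative values from -0.11 to 0.49. Positive values made up 51.3% of all tested genes. In 1 of the 40 genes the groups did not overlap, against 11.8% of all tested genes. This was PREB, a factor for coat assembly in secretion, named after its values were seen, at 57.6, 59.0 and 61.0 CPM in the SOX10 libraries and 53.1, 50.8 and 56.1 CPM in the controls.

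P4HB, the gene of the list with the highest CPM and the shared subunit of prolyl 4-hydroxylase and a disulfide isomerase, had 4688, 4916 and 4442 CPM in the SOX10 libraries and 4682, 4333 and 4734 CPM in the controls. The groups overlapped, with a log2 fold change of 0.03 (SE 0.08, adjusted p 0.974 by edgeR). The catalytic subunit P4HA3 had 11 reads in all. Catalytic subunits P4HA1 and P4HA2, all 3 lysyl hydroxylases (PLOD1, PLOD2 and PLOD3) and the collagen chaperone SERPINH1 were also tested, with log2 fold changes from -0.03 to 0.14. CRTAP, a partner of prolyl 3-hydroxylase, had 383 ± 34.0 against 370.1 ± 17.6 CPM (SD, n = 3 each). For CRTAP the log2 fold change was 0.05 (SE 0.10, adjusted p 0.968 by edgeR). The folding genes FKBP7 and FKBP14 had 0.31 (SE 0.21) and 0.32 (SE 0.25), both with overlapping groups. FKBP7 had 0.19 without control replicate 1, and FKBP14 had -0.064 without SOX10 replicate 3, where it was 49.4 CPM against 24.7 to 28.7 elsewhere.

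Cross-linking enzymes were led by LOXL2, a lysyl oxidase that acts on type IV collagen, with 889.9 ± 110.3 CPM in the SOX10 group and 947 ± 107 CPM in the controls (SD, n = 3 each). PXDN, the peroxidase that forms sulfilimine bonds between type IV molecules, had 374 ± 30.3 against 363 ± 15.2 CPM. Their log2 fold changes were -0.09 (SE 0.11) and 0.05 (SE 0.10), with adjusted p-values of 0.933 and 0.968 by edgeR. LOX, which cross-links fibrillar collagen, was at 26.6 ± 7.34 CPM in the controls. The log2 fold change of LOX was 0.31 (SE 0.22, adjusted p 0.917 by edgeR). It came to 0.14 without control replicate 2 and reached 0.53 without control replicate 3. LOXL1 had 9 reads in all. ADAMTS3, a procollagen N-proteinase, had the smallest p-value of the list, with 16.3, 19.5 and 21.1 against 14.4, 18.5 and 10.2 CPM and a log2 fold change of 0.49 (SE 0.29, adjusted p 0.882 by edgeR). Leaving out control replicate 3 moved it to 0.21 and control replicate 2 to 0.69. The related ADAMTS2 and ADAMTS14 had 15 and 20 reads. Of the collagen receptors, DDR2 and MRC2 had log2 fold changes of 0.18 and -0.02, and the fibril-binding proteoglycan genes FMOD and LUM had 0 reads.

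**Figure D5:**
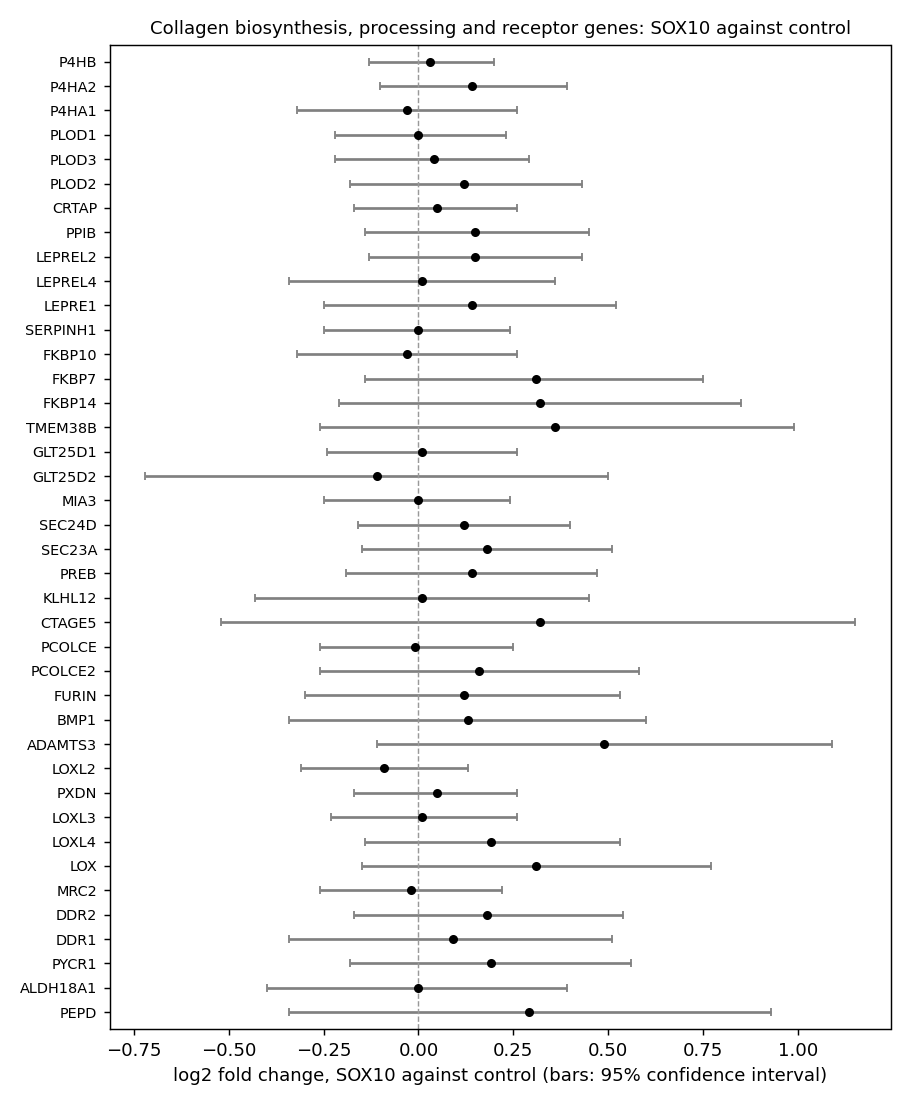
Log2 fold change of the 40 tested genes for collagen biosynthesis, processing, cross-linking and reception, SOX10 against control, from edgeR, with bars for the 95% confidence interval and genes ordered by step. All intervals include 0, and P4HB at the top has the narrowest, from -0.13 to 0.20.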

How the data were processed

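Total RNA (125 ng per library) of 6 libraries was sequenced, 3 per group. The values deposited by the authors are raw read counts per gene symbol. Tools and build per the submitters' processing notes are hg19, TopHat 1.4.0, HTSeq and DESeq. Annotation and strand setting were not given in the sources used here. Left out were the 5 class rows that name no gene (the class no_feature alone was 39.4% to 46.9% of records). Whether no_feature reads lie in introns or between genes is not stated in the sources used here. Columns were matched to samples by title and groups taken from the treatment label.

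The test was edgeR 4.0.16 (quasi-likelihood, R 4.3.3) on all 6 libraries. Genes were kept by filterByExpr at a minimum count of 10 and a minimum total of 15, scaled by TMM and tested two-sided without covariates, with Benjamini-Hochberg adjustment over 10678 genes at a threshold of 0.05. It was tested on simulated data. Log2 fold changes are SOX10 against control with edgeR's prior count of 0.125. The p-values set the difference between groups against the spread between these libraries, which edgeR moderates across genes. Standard errors and confidence intervals were derived from the log2 fold change and the F statistic of that test. An interval that includes 0 therefore restates an unadjusted p above 0.05. Libraries of 1 group differed by more than counting noise (chi-square per degree of freedom 1.98 to 6.50). RPKM were computed from TMM-scaled CPM and GENCODE release 29 transcript lengths, with the transcript choice made after the lengths were seen. That release is of another build, so only lengths and overlaps were used.

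Full statistics are given for the 8 tested chains with the highest mean CPM and the 4 with the smallest p, and likewise 4 and 4 of the biosynthesis genes; other chains get levels or ranges. The members and lists were chosen with earlier results of these data known. Alternatives were other scalings, filters, DESeq2 1.42.0, limma-voom (limma 3.58.1), the replicate number as a block, left-out libraries, thinning and a covariate.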

Additional observations from a re-analysis of the deposited data

How the results depend on the processing

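None of the 17 alternative fits called a collagen chain or a biosynthesis gene, with 13 to 43 chains tested, and the lowest adjusted p of the 20 chains tested in the report over them was 0.486. At most 3 chains had an unadjusted p under 0.05, in the fit with no low-count filter. The 12 calls over all genes became 48 with no low-count filter and 52 with no_feature reads as a covariate. They became 7 without SOX10 replicate 1 and control replicate 3 together. Without a single library there were 6 to 18, the lowest without control replicate 1. Same-numbered libraries did not deviate together (correlations -0.0296, -0.0327 and -0.14), and none correlated best with its own number. Every correlation between the groups was weak, at most 0.151, so they cannot decide whether the numbers are pairs. The replicate block gave 7 calls over all genes and 0 collagen calls. The number of chains at a mean of at least 1 CPM was 37, and 17 at a mean of at least 5 CPM. The lower threshold is close to a single read in control replicates 1 and 2, worth 1.08 and 1.15 CPM.

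Of 321 log2 fold changes recomputed for the genes with full statistics, 300 kept direction and 21 reversed, all with small values. Leaving out single libraries gave ranges of -0.066 to 0.20 for COL12A1, -0.36 to 0.046 for COL6A2, -0.29 to 0.13 for COL27A1, -0.064 to 0.49 for FKBP14, -0.0068 to 0.066 for P4HB, -0.18 to 0.0067 for LOXL2, -0.026 to 0.10 for CRTAP and -0.014 to 0.10 for PXDN. COL22A1 was -0.034 without SOX10 replicate 1 and control replicate 3 together and -0.069 after thinning. COL27A1 was 0.0042 with upper quartile factors, 0.010 with no filter, 0.067 with limma-voom, 0.026 after thinning and 0.044 with the covariate. Without SOX10 replicate 1 and control replicate 3 together, COL4A1 was 0.10 and COL15A1 0.25, and COL6A1 was -0.061 after thinning. The cause was not tested. Intervals were wide for rare chains, and for COL6A3 the fold interval ran from 0.268 to 1.25.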

Other observations

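Genes with collagen-like sequence that the naming rule leaves out were looked at after the other values were seen. COL26A1 is listed under its older symbol EMID2, with 0, 0 and 3 reads in the SOX10 libraries against 1, 0 and 2 in the controls. The collagen tail gene of acetylcholinesterase, COLQ, had 5 reads in all, and the type VI pseudogenes COL6A4P1 and COL6A4P2 had 17 and 28. COLEC12, a scavenger receptor with a collagen-like stalk, had 19.5, 20.7 and 25.7 CPM in the SOX10 libraries and 15.5, 18.5 and 26.3 CPM in the controls, and its log2 fold change was 0.06 (SE 0.25, adjusted p 0.987 by edgeR).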
